A study of Mus musculus with 9 samples.

Results

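The hair keratins and keratin-associated proteins, the proteins from which the hair shaft and the sheath around it are built, were described in skin of mice given bleomycin with or without topical nitrate. They were chosen by gene symbol among the protein-coding genes of the deposited table, as the Krtap genes and the keratins numbered 25 to 28, 31 to 36, 39, 40, 71 to 75, 79 and 81 to 87, and came to 81 of 54532 genes, 24 keratins and 57 keratin-associated proteins. RNA of skin biopsies was sequenced in 9 libraries of 3 groups: bleomycin with nitrate therapy (nitrate 1, 2 and 3), bleomycin without it (bleomycin 1, 2 and 3), and healthy mice (control 1, 2 and 3), all labelled as wild type in genotype. Bleomycin is a DNA-breaking antibiotic used in mice to model skin fibrosis. Nitrate can be reduced in tissue, by way of nitrite, to the signalling gas nitric oxide. Strain, age, dose, duration, the site of the biopsy, shaving and the stage of the hair cycle are not in the labels used here. Nothing in the labels says that the libraries of a group came from separate animals, so the p-values reflect only how these libraries vary, which may be technical.

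Hair grows from the base of the follicle during the growth phase of the hair cycle (anagen) and stops in the resting phase (telogen). Dividing cells of the hair bulb differentiate upwards into the shaft in the middle, the inner root sheath that moulds it, and the companion layer outside that sheath. Keratins work as pairs of an acidic type I and a basic type II chain that join into filaments, and in the shaft these filaments are embedded in a matrix of keratin-associated proteins (KAPs) cross-linked through their cysteines. The keratin families lie in gene clusters of their own, and many members are near copies of each other.

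The sequences that set the classes apart are shown first, as the stretch of 20 codons that holds the most codons of the kind in question, from the GENCODE M21 coding sequences of each gene. Capitals mark cysteine codons in Krtap4-1, Krt34 and Krt71, and glycine and tyrosine codons in Krtap6-1. The stretches are codons 114 to 133 of Krtap4-1, an ultra-high sulfur KAP, codons 8 to 27 of Krtap6-1, a high glycine-tyrosine KAP, codons 2 to 21 of Krt34, a type I shaft keratin, and codons 1 to 20 of Krt71, a type II keratin of the inner root sheath.
Krtap4-1: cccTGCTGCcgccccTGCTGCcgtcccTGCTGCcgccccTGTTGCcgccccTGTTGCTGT
Krtap6-1: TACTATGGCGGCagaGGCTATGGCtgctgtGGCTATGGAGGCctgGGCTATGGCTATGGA
Krt34: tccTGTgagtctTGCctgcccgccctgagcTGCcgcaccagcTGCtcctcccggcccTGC
Krt71: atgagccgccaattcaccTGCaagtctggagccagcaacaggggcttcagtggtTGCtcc
Cysteine takes 11 of the 20 codons in Krtap4-1, 5 in Krt34 and 2 in Krt71, and glycine or tyrosine takes 16 in Krtap6-1. Over whole coding sequences, the median share of cysteine codons was 1.98% in the 4 type I and 1.73% in the 3 type II inner root sheath keratins, 6.93% in the 9 type I and 6.06% in the 6 type II shaft keratins, 20.1% in the 21 high sulfur KAPs and 37.7% in the 17 ultra-high sulfur KAPs. The 19 high glycine-tyrosine KAPs had a median of 62.7% glycine and tyrosine codons. Krt75 of the companion layer and Krt79 of the upper follicle stood alone. The composition rule put Krtap7-1, at 29.9% glycine and tyrosine codons, just under its bound of 35% and so among the high sulfur KAPs, and put Krtap5-2 at 36.0%, Krtap5-3 at 39.3%, Krtap28-10 and Krtap28-13 among the high glycine-tyrosine KAPs although over 30% of their codons are cysteine.

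Of the 81 members, 69 had a promoter in the RefSeq table of build GRCm38.p6, where each entry covers 250 bases before and 50 after the start. Those without an entry were Krt33a, Krt35, Krt81, Krt83, Krt86, Krt87, Krtap1-3, Krtap7-1, Krtap9-1, Krtap10-10, Krtap12-1 and Krtap28-10. The 70 bases before the start are shown for the highest member with an entry in each of the 9 classes, and for the other called members, Krt84 and Krtap20-2. They run 5′ to 3′ in the direction of the gene, on the plus strand for Krtap15 and Krtap20-2 and on the minus strand for the rest. Capitals mark TATAAA, the letters of a TATA box. Of the inner root sheath, the stretches are chr15:101743098-101743167 for Krt71 and chr11:99351119-99351188 for Krt27. Of the shaft keratins, they are chr11:100041555-100041624 for Krt34, chr15:101550660-101550729 for Krt82 and chr15:101532821-101532890 for Krt84. Of the KAPs, they are chr16:89487953-89488022 for Krtap8-1, chr16:89205791-89205860 for Krtap20-2, chr16:88828939-88829008 for Krtap15 and chr11:99628240-99628309 for Krtap4-1. Krt75 has chr15:101573905-101573974 and Krt79 has chr15:101940325-101940394.
Krt71: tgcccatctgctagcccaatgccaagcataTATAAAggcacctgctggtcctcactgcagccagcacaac
Krt27: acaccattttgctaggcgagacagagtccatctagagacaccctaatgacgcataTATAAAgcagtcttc
Krt34: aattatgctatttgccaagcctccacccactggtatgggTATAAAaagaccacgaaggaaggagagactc
Krt82: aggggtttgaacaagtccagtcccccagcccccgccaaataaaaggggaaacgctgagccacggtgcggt
Krt84: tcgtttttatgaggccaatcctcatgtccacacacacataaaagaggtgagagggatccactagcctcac
Krtap8-1: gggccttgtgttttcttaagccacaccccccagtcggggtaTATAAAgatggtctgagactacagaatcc
Krtap20-2: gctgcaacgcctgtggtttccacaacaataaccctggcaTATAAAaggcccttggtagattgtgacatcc
Krtap15: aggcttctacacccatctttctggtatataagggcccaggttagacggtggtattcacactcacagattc
Krtap4-1: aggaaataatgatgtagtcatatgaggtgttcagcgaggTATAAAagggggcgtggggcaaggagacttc
Krt75: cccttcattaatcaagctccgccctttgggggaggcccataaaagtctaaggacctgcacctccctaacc
Krt79: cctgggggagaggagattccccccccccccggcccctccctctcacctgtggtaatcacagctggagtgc
Of these 11 stretches, TATAAA is in those of Krt71, Krt27, Krt34, Krtap8-1, Krtap20-2 and Krtap4-1 and in none of the other 5. In Krt27 it begins 15 bases before the start, so it was not counted in the window searched next. TATAAA on the gene's strand within 45 to 15 bases before the start was found in 41 of 69 members (59.4%), against 702 of 32851 promoters in the whole table (2.14%). By class it was found in 3 of 4 type I and 2 of 3 type II inner root sheath keratins, 4 of 7 type I shaft keratins, 9 of 18 high glycine-tyrosine, 13 of 19 high sulfur and 10 of 14 ultra-high sulfur KAPs. It was found in neither of the 2 type II shaft keratins with an entry, nor in Krt75 and Krt79. Searched on both strands over the whole 300 bases, TATAAA was in 79.7% of the members and 13.6% of all promoters, and CTTTGA, the core letters bound by LEF and TCF factors, in 30.4% of the members and 16% of all promoters. Many members are copies of each other, so these promoters are not independent, and a match of letters is a description and not a site.

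The members lay in 6 clusters (build mm10). Chromosome 11 held 36 (13 keratins and 23 KAPs, between 99315516 and 100105626), chromosome 16 held 24 KAPs, chromosome 15 held the 11 type II keratins, and chromosomes 7, 10 and 1 held 5, 3 and 2 KAPs. Near copies limit what the values of single genes mean. Of the 81, 34 had over 10% of their 50-base stretches in another gene and 20 had none. Krtap4-13 at 81.3% and Krtap5-1 at 54.3% had the most, and the levels of both are uncertain. The handling of reads that match several genes is not in the labels used here.

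The level of the hair transcripts differed between libraries of the same group far more than most genes did. The members summed to 21366, 4674 and 32104 FPKM (fragments per kilobase of gene length, scaled to library size) in nitrate 1, 2 and 3, to 159, 3876 and 8989 FPKM in bleomycin 1, 2 and 3, and to 80.4, 912 and 4990 FPKM in control 1, 2 and 3. Nitrate 1 and 3 were above every other library, nitrate 2 lay between control 3 and bleomycin 2, and bleomycin 1 and control 1 were far below the rest. In shares of all reads these sums were 3.10%, 0.749% and 4.60% in the nitrate libraries, 0.0600%, 0.650% and 1.33% in the bleomycin libraries, and 0.0337%, 0.150% and 0.698% in the control libraries. In control 1, 68 of the 81 members had 0 reads, as did 26 in bleomycin 1, at a depth of 15804050 to 18352592 reads per library. A count of 0 allows up to 3 reads by counting error alone. In bulk skin, fewer hair-forming cells and less hair RNA per cell cannot be told apart.

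The libraries kept nearly the same order in most members. Nitrate 3 was the highest library in 75 of the 81 members, nitrate 1 in 5 and nitrate 2 in 1, which was Krt79. Nitrate 3, nitrate 1 and bleomycin 3 were the 3 highest in 74 members, and bleomycin 1 and control 1 the lowest pair in 78, or in 76 where ties with another library are left out. A single full order, from nitrate 3 down through nitrate 1, bleomycin 3, control 3, nitrate 2, bleomycin 2, control 2 and bleomycin 1 to control 1, held in 31 members, or in 27 without ties. Nitrate 2 was below control 3 in 52 members and above it in 28. The spread within groups, as a standard deviation of log2(FPKM + 1), had a median of 2.40 over the 79 members tested and 0.22 over all 14645 genes tested, and 56 of the 100 genes with the largest spread were members.

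**Figure D1:**
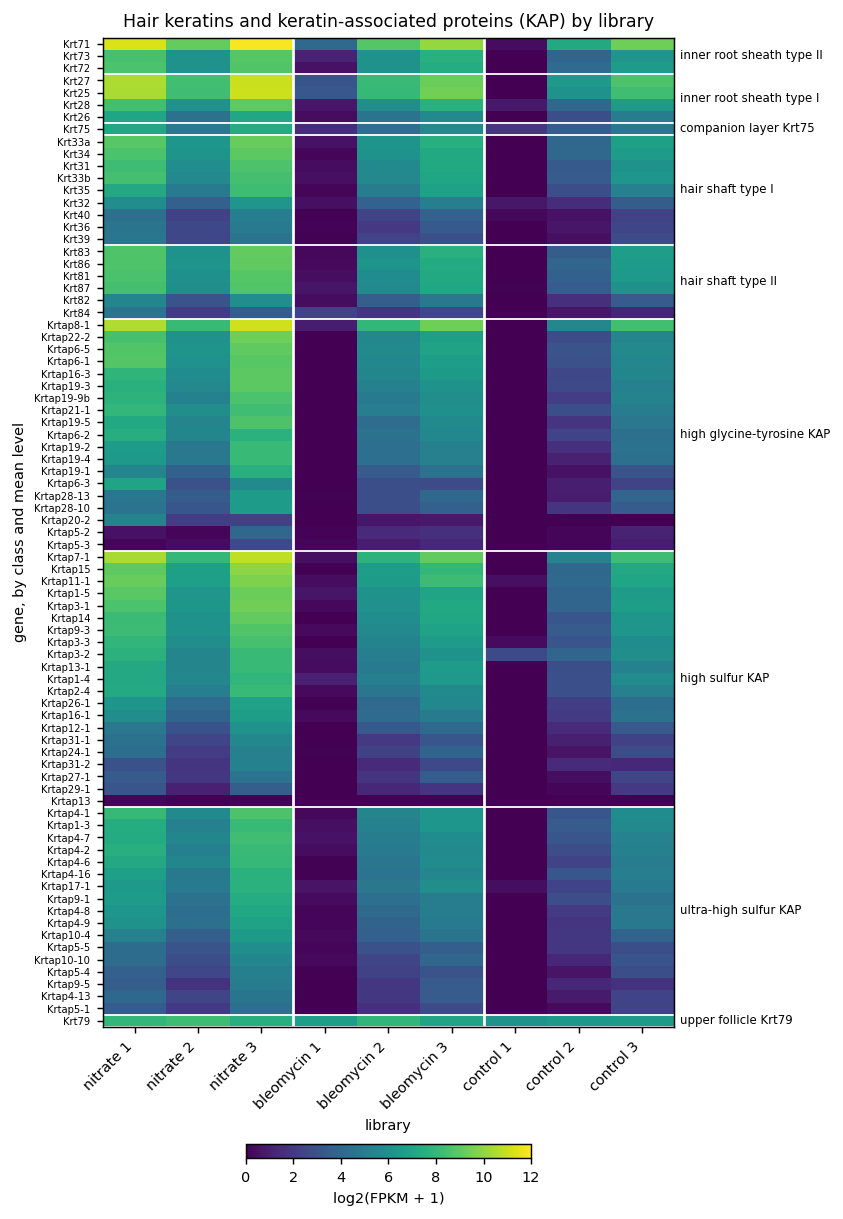
Each row is one of the 81 members, ordered by class and mean level, each column a library, and colour gives log2(FPKM + 1). The dark columns bleomycin 1 and control 1 and the bright columns nitrate 1 and nitrate 3 run through all classes but Krt79.

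Genes were tested where at least 3 of the 9 libraries reached 1 FPKM, which left 79 members. Krtap13, at most 0.122 FPKM in any library, and Krtap5-3, which passed 1 FPKM in nitrate 3 (5.34) and bleomycin 3 (1.51), were left out, and Krtap20-2 was tested only because its 3 nitrate libraries passed. Fold changes are differences in log2(FPKM + 1), which understate the change of low genes, and calls were made in limma where p, adjusted by Benjamini and Hochberg over all 14645 genes, was under 0.05.

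Nitrate with bleomycin was set against bleomycin alone to ask how nitrate therapy changed the bleomycin-treated skin. All 79 members had a higher mean in the nitrate group, with a median log2 fold change of 3.05 against -0.00 over all genes, and the largest positive fold change of all 14645 genes was that of a member, Krtap7-1. No member and no other gene was called (0% of genes). At an unadjusted p under 0.05 in limma stood 4 members (Krtap20-2, Krtap6-3, Krt79 and Krtap31-1, chosen here by that p) and 2624 genes, which is 5.06% of the members beside 17.9% of all genes (7.48% in the higher direction), and limma voom on recovered reads also called 0. Krtap20-2, counted in that share, entered the test only through its nitrate libraries, which fixed its direction. The 3 nitrate libraries lay above the 3 bleomycin libraries in 2 members, Krtap6-3 and Krtap20-2, or 2.53% of members beside 9.40% of all genes, and without Krtap20-2 in 1 of 78 (1.28%). Without bleomycin 1 the members' median fell to 1.26.

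Against control, 3 members were called higher in the nitrate group, Krt79, Krt84 and Krtap20-2, which is 3.80% of the members beside 3.63% of all genes called higher, with 8.53% called in either direction and 4.90% lower. Krtap20-2 entered the test only through its nitrate libraries, which fixed its direction, and without it 2 of 78 members were called (2.56%). At an unadjusted p under 0.05 stood 41 members (51.9%), beside 31.5% of all genes (15.4% in the higher direction). All 79 members had a higher mean, with a median log2 fold change of 4.15 against 0.02 over all genes, and Krtap8-1 had the largest positive fold change of all 14645 genes. The nitrate libraries lay above the control libraries in 28 members (35.4%), or 27 of 78 without Krtap20-2 (34.6%), beside 17.3% of all genes. The 28 were those in which nitrate 2 was above control 3, so 1 pair of libraries set which members these were. These were 13 of the 18 high glycine-tyrosine, 6 of the 17 ultra-high sulfur and 4 of the 20 high sulfur KAPs tested, 2 type I and 1 type II shaft keratin, Krt75 and Krt79, and none of the 7 inner root sheath keratins, in each of which control 3 was above nitrate 2. The count of members called depended on single libraries: it was 1 without nitrate 1, 7 without nitrate 2, 0 without nitrate 3, 1 without bleomycin 3, 0 without control 1 and 0 without control 2. The number of all genes called also moved widely with the library left out, so these counts are not read as particular to the members. Without control 1 the median was 2.69. The members kept nearly the same order of libraries, so the shares of 35.4% and 51.9% do not count independent genes.

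Bleomycin alone was set against control to ask what the bleomycin treatment changed. No member was called in limma, beside 8.43% of all genes (4.74% higher and 3.69% lower), with 2 members (Krt79 and Krt84) at an unadjusted p under 0.05, beside 26.9% of all genes (14.0% in the higher direction), and 0 called by voom. The bleomycin libraries lay above the control libraries in those 2 members (2.53%), beside 18.4% of all genes. The mean was higher in bleomycin in 78 of 79 members, with a median log2 fold change of 1.02 against 0.01 over all genes; the exception was Krtap3-2 at -0.26. That direction rested on single libraries. The median was -0.16 without control 1, with 55 members below 0, and -0.07 without bleomycin 3, with 53 below 0, whereas it was 2.75 without bleomycin 1, 0.46 without bleomycin 2 and 2.26 without control 3. The comparisons share libraries, so their fold changes are not independent of each other.

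**Figure D2:**
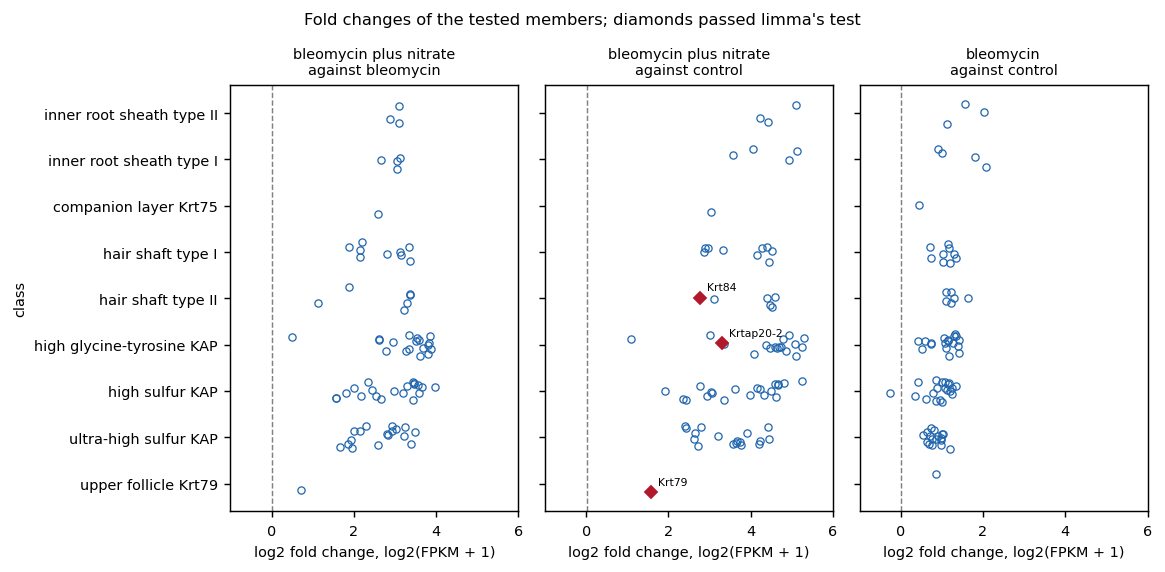
Each point is the log2 fold change of 1 of the 79 tested members (horizontal axis, in log2(FPKM + 1)) by class, in the 3 comparisons, and the dashed line is the median of all genes. Diamonds mark the 3 called members, which are all in the comparison of nitrate with control, where the members lie between 1.10 and 5.30.

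Krt71, Krt27 and Krt25 of the inner root sheath had the highest mean levels of the 24 keratins, at 1034, 588 and 586 FPKM over the 9 libraries. Krt71, a type II chain of the inner root sheath whose mutation gives mice a curly coat, had 2524, 569 and 3817 FPKM in nitrate 1, 2 and 3, 16.1, 460.0 and 1109 FPKM in bleomycin 1, 2 and 3, and 0.299, 154 and 659 FPKM in control 1, 2 and 3. Both other groups overlapped the nitrate group, since bleomycin 3 and control 3 were above nitrate 2. Its log2 fold change was 3.10 for nitrate against bleomycin (adjusted p = 0.546 in limma), 5.11 for nitrate against control (adjusted p = 0.190) and 2.01 for bleomycin against control (adjusted p = 0.633), each with a standard error of 2.43. Krt71 made up 81.0% of the type II inner root sheath level in nitrate 3 and 90.6% in bleomycin 1. The type I chains Krt27 and Krt25 followed at 1452, 334 and 2098 FPKM (Krt27) and 1407, 318 and 2197 FPKM (Krt25) in the nitrate libraries, against 0, 88.1 and 406 FPKM (Krt27) and 0, 69.6 and 323 FPKM (Krt25) in the control libraries. In bleomycin 1 both still had 7.60 and 8.67 FPKM, where the highest KAP (Krtap1-4) had 1.14 FPKM. Krt28, Krt26, Krt72 and Krt73, the other chains of the sheath, were at 21.8 to 517 FPKM in the nitrate libraries, 0.334 to 197 FPKM in the bleomycin libraries and 0 to 99.4 FPKM in the control libraries. Krt74 and the type II shaft keratin Krt85 were not analysed here, so the type II sums leave both out.

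Type I and type II chains ran closely in step in the libraries other than bleomycin 1 and control 1. Summed type I over type II FPKM in the inner root sheath was 1.02, 1.05 and 1.05 in nitrate 1, 2 and 3, 0.971, 1.04 and 1.06 in the bleomycin libraries 1, 2 and 3, and 2.32, 0.967 and 1.02 in control 1, 2 and 3, where control 1 rests on few reads. In the shaft the same ratio was 1.10, 1.12 and 1.14 in the nitrate libraries, 1.18 and 1.17 in the bleomycin libraries 2 and 3, and 1.17 and 1.12 in control 2 and 3. Bleomycin 1, with 301 shaft keratin reads, and control 1, with 25, gave shaft ratios of 0.336 and 15.9.

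Among the shaft keratins, Krt33a was the highest type I chain at 464, 78.0 and 596 FPKM in nitrate 1, 2 and 3, 0.505, 73.6 and 192 FPKM in bleomycin 1, 2 and 3, and 0.0317, 14.8 and 111 FPKM in control 1, 2 and 3. Its log2 fold change was 3.33 against bleomycin (adjusted p = 0.466 in limma) and 4.52 against control (adjusted p = 0.197) for nitrate, and 1.19 for bleomycin against control (adjusted p = 0.762), with a standard error of 2.19. Krt34, Krt31 and Krt33b ranged over 48.5 to 497 FPKM in the nitrate libraries, 0.152 to 154 FPKM in the bleomycin libraries and 0 to 95.3 FPKM in the control libraries.
On the type II side Krt83, whose human counterpart is mutated in the beaded hair disorder monilethrix, had 417, 69.9 and 549 FPKM in the nitrate libraries, 0.200, 63.8 and 195 FPKM in the bleomycin libraries and 0, 10.7 and 101 FPKM in the control libraries. In each of these genes control 3 and bleomycin 3 exceeded nitrate 2, so the groups overlapped. Krt83 had log2 fold changes of 3.35 for nitrate against bleomycin (adjusted p = 0.468 in limma), 4.58 for nitrate against control (adjusted p = 0.197) and 1.22 for bleomycin against control (adjusted p = 0.758), with a standard error of 2.22. Krt86, Krt81 and Krt87 were at 62.3 to 539 FPKM, 0.250 to 165 FPKM and 0 to 99.6 FPKM in the nitrate, bleomycin and control libraries, and 36.9% to 43.3% of their 50-base stretches occur in another gene, so levels could be shared among them.

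Krt75, the keratin of the companion layer, was lower than the leading sheath and shaft keratins, and kept 107 reads in bleomycin 1 and 138 in control 1. It had 139.7 FPKM in nitrate 1, 28.6 in nitrate 2 and 168 in nitrate 3, against 2.01, 20.3 and 51.0 FPKM in bleomycin 1, 2 and 3 and 2.76, 10.7 and 28.2 FPKM in control 1, 2 and 3. All nitrate libraries were above all control libraries, narrowly in nitrate 2 against control 3, while bleomycin 3 exceeded nitrate 2. Its log2 fold change was 3.03 for nitrate against control (adjusted p = 0.137 in limma), 2.58 for nitrate against bleomycin (adjusted p = 0.316) and 0.46 for bleomycin against control (adjusted p = 0.839), with a standard error of 1.21.

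KAPs made up 49.1% to 55.2% of the summed hair level in the nitrate libraries, 47.4% and 47.5% in the bleomycin libraries 2 and 3, and 37.7% and 48.2% in control 2 and 3. In bleomycin 1 and control 1 the share was 5.32% and 7.79%, and Krt79 alone made up 66.3% and 86.2% of the sum. Krtap8-1, a high glycine-tyrosine KAP, was the highest KAP, at 1503, 279 and 2277 FPKM in nitrate 1, 2 and 3, 0.855, 249 and 647 FPKM in bleomycin 1, 2 and 3, and 0, 46.2 and 329 FPKM in control 1, 2 and 3. Bleomycin 3 and control 3 lay above nitrate 2. Its log2 fold change was 3.88 for nitrate against bleomycin (adjusted p = 0.483 in limma), 5.30 for nitrate against control (adjusted p = 0.210) and 1.42 for bleomycin against control (adjusted p = 0.766), with a standard error of 2.66.
Krtap7-1 followed, with 1375, 253 and 1872 FPKM in the nitrate libraries, 0.395, 215 and 549 FPKM in the bleomycin libraries and 0, 39.1 and 304 FPKM in the control libraries, in the same order of libraries. Its log2 fold changes were 3.98 (nitrate against bleomycin, adjusted p = 0.473 in limma), 5.24 (nitrate against control, adjusted p = 0.215) and 1.25 (bleomycin against control, adjusted p = 0.794), with a standard error of 2.67. Krtap15, Krtap11-1 and Krtap1-5, the next high sulfur KAPs, were at 74.6 to 963 FPKM in the nitrate libraries, 0.0583 to 301 FPKM in the bleomycin libraries and 0 to 152 FPKM in the control libraries.
The ultra-high sulfur KAPs were lower. Krtap4-1, their highest member, had 260.1, 52.9 and 396 FPKM in nitrate 1, 2 and 3, 0.181, 43.0 and 75.6 FPKM in bleomycin 1, 2 and 3, and 0, 8.14 and 56.9 FPKM in control 1, 2 and 3. Control 3 was just above nitrate 2, so these groups too overlapped, and the log2 fold changes were 3.48 for nitrate against bleomycin (adjusted p = 0.392 in limma), 4.45 for nitrate against control (adjusted p = 0.160) and 0.97 for bleomycin against control (adjusted p = 0.780), with a standard error of 1.93. Krtap1-3, Krtap4-7 and Krtap4-2 were at 35.6 to 316 FPKM, 0.315 to 79 FPKM and 0 to 50.1 FPKM in the nitrate, bleomycin and control libraries.

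**Figure D3:**
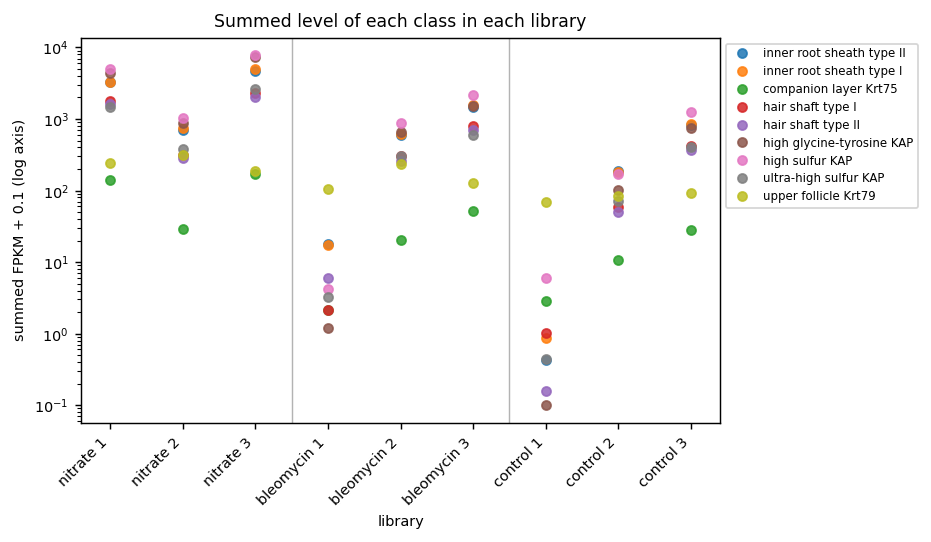
Points give the summed FPKM plus 0.1 of each class (log axis) in each library, with nitrate, bleomycin and control libraries from left to right. Within the bleomycin and control groups every class is lowest in bleomycin 1 and control 1, and Krt79 moves least, between 69.3 and 311 FPKM.

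Krt79, Krt84 and Krtap20-2, the members called, each departed from the common order of libraries. Krt79 marks the upper follicle, the hair canal and the sebaceous duct and not the shaft, and it stayed high where the others were near 0. It had 242, 311 and 189 FPKM in nitrate 1, 2 and 3, 105, 235 and 128 FPKM in bleomycin 1, 2 and 3, and 69.3, 83.8 and 91.8 FPKM in control 1, 2 and 3. Every nitrate and every bleomycin library was above every control library, and the nitrate and bleomycin libraries overlapped through bleomycin 2. Krt79 rose in nitrate against control by a log2 fold change of 1.57 (standard error 0.31, adjusted p = 0.0263 in limma), and the fold changes of 0.72 for nitrate against bleomycin (adjusted p = 0.267) and 0.85 for bleomycin against control (adjusted p = 0.124) did not pass. The call was lost without nitrate 1 (adjusted p = 0.0627), nitrate 3 (0.0587), control 1 (0.0876) or control 2 (0.0953), and without the filter on low values (0.0620).

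Krt84 is a type II hair keratin that in humans is known from the tongue's filiform papillae. It had 23.5, 3.20 and 10.7 FPKM in nitrate 1, 2 and 3, 4.28, 2.62 and 5.0 FPKM in bleomycin 1, 2 and 3, and 0, 0.631 and 1.37 FPKM in control 1, 2 and 3. All control libraries were below all others, and nitrate 2 lay among the bleomycin libraries. Krt84 rose in nitrate against control by a log2 fold change of 2.76 (standard error 0.59, adjusted p = 0.0321 in limma), while 1.13 for nitrate against bleomycin (adjusted p = 0.359) and 1.63 for bleomycin against control (adjusted p = 0.125) did not pass. In bleomycin 1, where other shaft keratins were nearly empty, Krt84 had 184 reads and made up 71.4% of the type II shaft keratin level, against 0.525% in nitrate 3. The call was lost without nitrate 1 (adjusted p = 0.0640), nitrate 3 (0.102), bleomycin 3 (0.0531), control 1 (0.102) or control 2 (0.112), without the filter (0.0755), in the fit of only the 2 groups (0.0722) and with voom (0.123).

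Krtap20-2, a high glycine-tyrosine KAP of chromosome 16, was highest in nitrate 1 and not in nitrate 3. It had 40.2, 3.58 and 4.04 FPKM in nitrate 1, 2 and 3, 0, 0.649 and 0.743 FPKM in bleomycin 1, 2 and 3, and 0 FPKM in each control. Those levels rest on 394, 35 and 41 reads in the nitrate libraries and 0, 6 and 7 in the bleomycin libraries, and all nitrate libraries were above all others. Against a floor of 3 reads in each control library the nitrate mean was at least 46.7-fold higher, and at least 11.1-fold higher without nitrate 1. It was called higher in nitrate against control (adjusted p = 0.0355 in limma; the fitted log2 fold change of 3.30 depends on the pseudocount of 1), and nitrate against bleomycin did not pass (log2 fold change 2.79, adjusted p = 0.136). Since the filter let this gene in only through its nitrate libraries, its direction was fixed by that choice. The call was lost without nitrate 3 (adjusted p = 0.0659), bleomycin 2 (0.0522), bleomycin 3 (0.0588), control 1 (0.102), control 2 (0.122) or control 3 (0.0717), without the filter (0.0824), in the fit of only the 2 groups (0.0802) and with voom (0.0963).

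**Figure D4:**
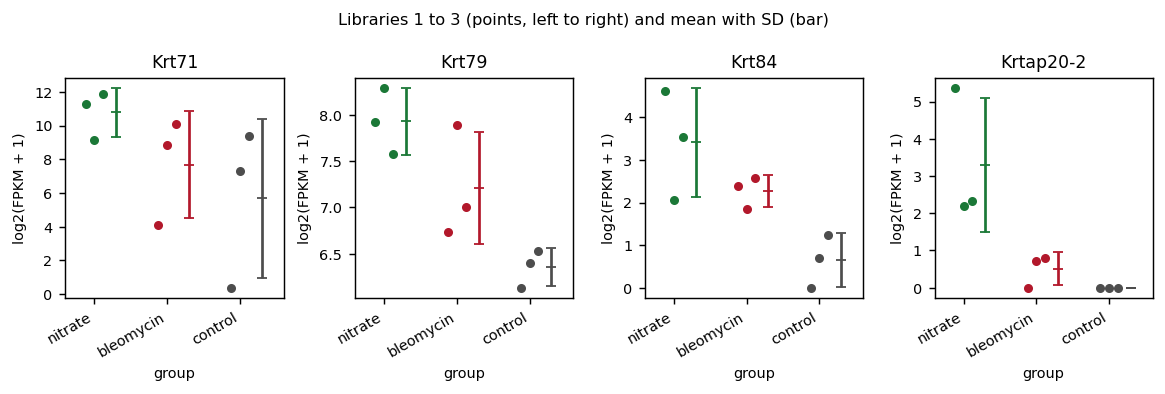
Points are the libraries 1 to 3 of each group and bars the group mean with its SD, in log2(FPKM + 1), each gene on an axis of its own. Of these 4 genes Krt71 spans the widest range within bleomycin and control, while Krt79, Krt84 and Krtap20-2 separate all nitrate from all control libraries. Krtap20-2 entered the test only through its nitrate libraries.

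A few other members also left the common order, and are named here for that after their values were seen. Krtap3-2, a high sulfur KAP, had 5.27 FPKM (83 reads) in control 1, where it made up 88.9% of its class, although it had 0.357 FPKM in bleomycin 1. Krtap6-3 was highest in nitrate 1, at 127 FPKM, against 6.93 in nitrate 2 and 51.2 in nitrate 3. Krtap5-2 and Krtap5-3 were instead highest in nitrate 3, at 14.6 and 5.34 FPKM there, against 0.482 and 0.132 FPKM in nitrate 1.

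Ratios between classes varied less than the summed level among the 7 libraries other than bleomycin 1 and control 1. Inner root sheath over shaft keratins, as summed FPKM, was 1.93, 2.43 and 2.21 in nitrate 1, 2 and 3, 2.20 and 2.02 in the bleomycin libraries 2 and 3, and 3.36 and 2.15 in control 2 and 3. The groups overlapped, and control 2 had the highest ratio among these 7 libraries. In bleomycin 1 and control 1 the ratio was 4.39 and 1.13, on few shaft reads. Ultra-high sulfur over high sulfur KAPs overlapped as well, at 0.294, 0.359 and 0.340 in the nitrate libraries, 0.343 and 0.277 in the bleomycin libraries 2 and 3, and 0.418 and 0.322 in control 2 and 3. Bleomycin 1 and control 1 lay outside that range, at 0.764 (50 against 58 reads) and 0.0581 (4 against 92 reads).

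High glycine-tyrosine KAPs took a larger share beside the high sulfur KAPs in the nitrate libraries. Their ratio of summed FPKM was 0.866, 0.835 and 0.929 in nitrate 1, 2 and 3, 0.739 and 0.689 in the bleomycin libraries 2 and 3, and 0.598 and 0.597 in control 2 and 3, with no overlap between groups among these 7 libraries. Bleomycin 1, at 0.267 (14 against 58 reads), and control 1, at 0 (0 against 92 reads), had too few reads to be read for this. Nitrate 2 and control 3 had similar summed hair levels (4674 and 4990 FPKM) and ratios of 0.835 and 0.597. This pair was chosen with the values known, and whether the ratio follows the hair level was not tested. Without Krtap8-1 and Krtap7-1 the ratio was 0.782, 0.749 and 0.839 in the nitrate libraries, 0.604 and 0.524 in the bleomycin libraries 2 and 3, and 0.424 and 0.441 in control 2 and 3. Among genes of chromosome 16 alone it was 1.44, 1.41 and 1.52 in the nitrate libraries, 1.21 and 1.04 in the bleomycin libraries 2 and 3, and 1.09 and 0.980 in control 2 and 3, where bleomycin and control overlapped.
Not every gene of the class took part. Krtap8-1 over the high sulfur KAPs was 0.296, 0.267 and 0.292 in the nitrate libraries, 0.283 and 0.298 in the bleomycin libraries 2 and 3, and 0.271 and 0.262 in control 2 and 3, with all groups overlapping. Krtap6-5, relative to the summed shaft keratins, was at 12.5%, 12.4% and 12.5% in nitrate 1, 2 and 3, 8.97% and 7.97% in the bleomycin libraries 2 and 3, and 6.90% and 6.22% in control 2 and 3. Krtap6-1 was at 13%, 11.1% and 10.9% in the nitrate libraries, 8.64% and 6.97% in the bleomycin libraries 2 and 3, and 6.36% and 5.98% in control 2 and 3, and Krtap22-2 at 10.7%, 11.2% and 14.7% in the nitrate libraries, 8.27% and 7.47% in the bleomycin libraries 2 and 3, and 5.25% and 5.44% in control 2 and 3. These 3 genes were chosen for separating the groups in the same order as the class did. Counted over all members in these 7 libraries, the level relative to the shaft keratins was higher in every nitrate library than in the other 4 in 8 of the 19 high glycine-tyrosine KAPs, these 3 among them, and not in the other 11, and it was so in 3 of the other 62 members. The ratios and this count were noticed in the data and are a description, with no test. The count was made over the members only, without a share of all genes. Many members are near copies of each other, so the genes counted are not independent.

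**Figure D5:**
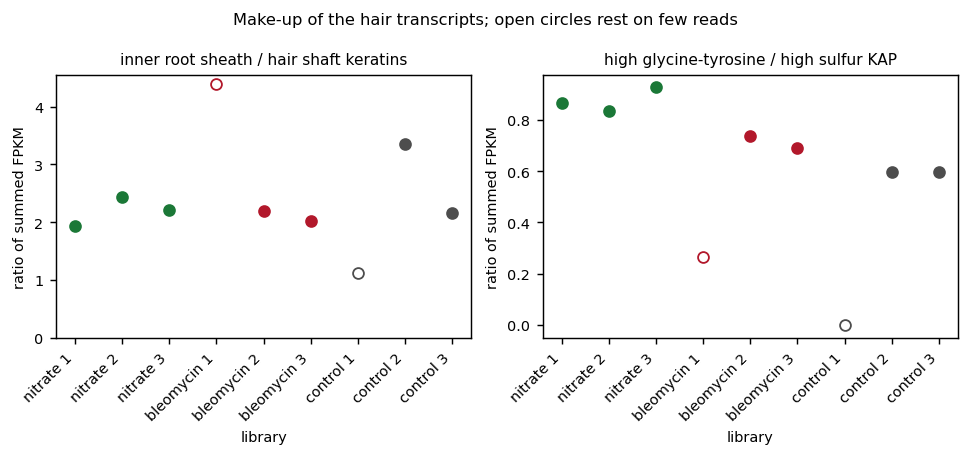
Ratios of summed FPKM by library, for inner root sheath over shaft keratins (left) and high glycine-tyrosine over high sulfur KAPs (right). Open circles are bleomycin 1 and control 1, which rest on few reads, and among the filled circles the right panel separates nitrate (0.835 to 0.929), bleomycin (0.689 and 0.739) and control (0.597 and 0.598).

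KAP families differed in how strongly nitrate 3 exceeded nitrate 1. The 57 KAPs fall into 27 families by symbol, 12 with more than 1 member. The 6 Krtap19 genes summed to 795 FPKM in nitrate 1, 197 in nitrate 2 and 2024 in nitrate 3, whereas the 4 Krtap6 genes summed to 1178, 191 and 1277 FPKM in those libraries. Both are high glycine-tyrosine families of chromosome 16. Over classes, the median ratio of nitrate 3 to nitrate 1 was 1.27 in type II inner root sheath and 1.28 in type I shaft keratins, 1.81 in ultra-high sulfur and 2.21 in high glycine-tyrosine KAPs.

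Other hair genes were read from lists chosen with earlier results of these data known. Of 14 structural partners of the shaft and sheath, none was called for nitrate against bleomycin or control. For bleomycin against control 1 was called higher, beside 4.74% of all genes. Trichohyalin (Tchh), the granule protein of the inner root sheath and medulla, had 1945, 434 and 2375 FPKM in nitrate 1, 2 and 3, 10.6, 349 and 722 FPKM in bleomycin 1, 2 and 3, and 0.550, 111 and 595 FPKM in control 1, 2 and 3, the same order of libraries as Krt71. Of 16 regulators of shaft formation, 4 rose in nitrate against control (beside 3.63% of all genes called higher), 3 rose in bleomycin against control (beside 4.74%) and none was called for nitrate against bleomycin. The 4 were Ovol1, Wnt10a, Prdm1 and Foxq1, and the 3 were Ovol1, Wnt10a and Prdm1. In bleomycin 1, low in hair RNA, the 4 had 38.1, 17.0, 11.3 and 2.12 FPKM in that order. Their log2 fold changes for nitrate against bleomycin were 0.005, -0.27, 0.25 and 0.92. Dlx3, a homeobox factor needed for hair differentiation, had 93.0, 28.3 and 147 FPKM in the nitrate libraries, 6.87, 21.9 and 52.9 FPKM in the bleomycin libraries and 2.86, 7.96 and 28.1 FPKM in the control libraries, and did not pass for nitrate against control (log2 fold change 2.89, adjusted p = 0.0915 in limma).
Of 9 resting follicle stem cell genes, 4 rose and 2 fell in nitrate against control, beside 3.63% and 4.90% of all genes called in those directions, and 3 fell in bleomycin against control, beside 3.69% of all genes. Krt15, a bulge keratin, had 298, 238 and 342 FPKM in the nitrate libraries, 52.1, 127 and 131 FPKM in the bleomycin libraries and 363, 325 and 439.7 FPKM in the control libraries. It was thus low in bleomycin and high in control 1, unlike the hair keratins. The 3 that fell in bleomycin against control were Krt15 (log2 fold change -1.96, adjusted p = 0.0144 in limma), Cd34 and Fgf18. Krt15 was not called for nitrate against control (log2 fold change -0.36, adjusted p = 0.486 in limma). The 4 genes that rose there were Sox9, Tbx1, Foxc1 and Lgr5, and the 2 that fell were Cd34 and Fgf18. Sox9 had 27.6, 17.2 and 18.5 FPKM in the nitrate libraries and 6.85, 12.4 and 8.43 FPKM in the bleomycin libraries. In the control libraries Sox9 had 3.61, 6.86 and 7.62 FPKM. Of 9 melanocyte genes tested from a list of 11, 3 rose in nitrate against control, beside 3.63% of all genes. In bleomycin against control 1 of them rose, beside 4.74% of all genes. Of 10 proliferation genes none was called in any of the 3 comparisons.

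Markers of other tissue moved between libraries as well. Summed over 8 skeletal muscle genes, the level was 2702, 8801 and 1921 FPKM in nitrate 1, 2 and 3, 11123, 2514 and 5804 FPKM in bleomycin 1, 2 and 3, and 13994, 17385 and 12007 FPKM in control 1, 2 and 3. Muscle was lowest in nitrate 3, bleomycin 2 and nitrate 1, and within the nitrate group highest in nitrate 2, the nitrate library with the least hair RNA. Within the bleomycin group muscle was highest in bleomycin 1, which had the least hair RNA, but lowest in bleomycin 2 and not in bleomycin 3. Within the control group it was highest in control 2 and not in control 1, which had the least hair RNA. Of these 8 genes 1 fell in nitrate against control and none was called for bleomycin against control. The 8 fat cell genes summed to 232 to 860 FPKM in the nitrate, 852 to 989 FPKM in the bleomycin and 1319 to 1993 FPKM in the control libraries, with 5 lower in nitrate and 1 lower in bleomycin against control. The 8 fibroblast genes summed to 1587 to 2412 FPKM in the nitrate, 1648 to 2586 FPKM in the bleomycin and 4727 to 6093 FPKM in the control libraries, with 3 lower in both treated groups against control, so that Col1a1, a collagen chain, fell in the fibrosis model (log2 fold change -1.53 for bleomycin against control, adjusted p = 0.00886 in limma). The 8 genes of the epidermis between follicles summed to 4763 to 8037 FPKM in the nitrate, 6696 to 9893 FPKM in the bleomycin and 2291 to 4004 FPKM in the control libraries, with 1 higher in nitrate and 3 higher in bleomycin against control. The 8 sebaceous gland genes summed to 843 to 1519 FPKM in the nitrate, 565 to 1628 FPKM in the bleomycin and 936 to 2587 FPKM in the control libraries, with 1 lower in each treated group against control. The 8 leukocyte genes summed to 247 to 527 FPKM, 734 to 1183 FPKM and 269.7 to 400.2 FPKM in the nitrate, bleomycin and control libraries, and of the 7 tested none was called for nitrate and 3 were higher for bleomycin against control. No gene of any of these lists was called for nitrate against bleomycin. Over all genes, 4.90% were called lower and 3.63% higher in nitrate against control. In bleomycin against control 3.69% were called lower and 4.74% higher. No gene of the muscle, fat, fibroblast, epidermis, gland or leukocyte lists was at 0 in any library. The part of tissue make-up in the levels of the hair genes was not tested.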

How the data were processed

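Total RNA of mouse skin biopsies was sequenced in 9 libraries, and the titles gave the groups. RNA was purified on columns and made into mRNA libraries, per the labels' protocols. The authors deposited FPKM values per gene; per the submitters' processing notes the build was mm10, and the labels used here name no aligner or counting tool. Multiplied by gene length, 100% of values were whole steps of 1 read (within 0.01), and reads were recovered from these.

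The members, classes and gene lists were chosen with earlier results of these data known. KAP classes, planned on RefSeq proteins, were set on codons of GENCODE M21: at least 35% glycine and tyrosine, else over 30% cysteine, else high sulfur. Genes with FPKM of at least 1 in at least 3 libraries were fitted by limma 3.58.1 (R 4.3.3) as log2(FPKM + 1) (3 group means, trend and robust, two-sided). It was tested on simulated data. Named were the 4 highest of each class by mean FPKM, Krt75, Krt79, called members and, of other lists, at most the 3 highest. Called genes of the regulator and stem cell lists were named as well. Alternatives were pseudocounts of 0.1 and 0.5, no filter, median-of-ratios scaling, only the 2 groups compared, a replicate block, voom on recovered reads and leaving out each library. Python 3.11.15 and matplotlib 3.10.9 drew the figures.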

Additional observations from a re-analysis of the deposited data

How the results depend on the processing

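Pseudocounts of 0.1 and 0.5 and median-of-ratios scaling (factors of 1.01 in every library) kept the calls of Krt79, Krt84 and Krtap20-2, and the summed hair FPKM moved by under the spread between libraries. Without the filter, 676 genes were called for bleomycin against control, and 294 genes and 0 members for nitrate against control, with more genes tested. In fits of only the 2 groups compared, 1 member (Krt84) was called for bleomycin against control, and 306 genes and 1 member (Krt79) for nitrate against control. Voom called 1 member for nitrate against control. Same-numbered libraries did not deviate together in every pair (correlations of -0.39 to 0.52, or -0.34 to 0.39 without the members), so the numbers were not taken as pairs. The libraries numbered 3 had the highest hair sum of each group. Their correlations were positive, at 0.43 (bleomycin with control), 0.34 (nitrate with bleomycin) and 0.44 (nitrate with control). Without the members these were lower, at 0.23, 0.27 and 0.39 in that order. Libraries of unlike number could correlate as well, as nitrate 2 with bleomycin 1 at 0.58 (0.52 without the members). With the replicate block, 10 genes were called for nitrate against bleomycin and 6 members for nitrate against control. Among these 6 were Krt79 and Krt84 but not Krtap20-2 (adjusted p = 0.0559 in limma). The member counts under voom and the block stand without the share of all genes, so they are not read as particular to the members.

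Leaving out 1 library gave 0 to 1 members and 334 to 1539 genes for bleomycin against control, 0 to 37 genes for nitrate against bleomycin, and 0 to 7 members and 45 to 2882 genes for nitrate against control. For bleomycin against control the log2 fold change reversed without control 1 or bleomycin 3 in Krt75 (range -0.44 to 1.61), Krt33a (-0.59 to 3.30), Krt83 (-0.48 to 3.41), Krtap8-1 (-0.90 to 4.01), Krtap7-1 (-1.01 to 3.90) and Krtap4-1 (-0.54 to 2.84), and without control 1 in Krt71 (-0.63 to 3.86). These 7 genes passed the test under none of the settings. The share of recovered reads is in another unit and stands beside the sums above. With 3 libraries a group and this spread, a member outside the calls may have changed all the same.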
